A study of Mus musculus with 8 samples.

Results

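Tm4sf19, Tm4sf1 and the tetraspanins Cd9, Cd63, Cd81, Cd82, Cd53, Cd37, Cd151 and Tspan7 are 10 genes of cell surface and vesicle proteins that cross the membrane several times. They were chosen by name, starting from the response of Tm4sf19 in these same arrays, so the comparison between groups is a description for them and carries no test. Of the 10 genes, 9 had a matched row, 1 each, among 19836 gene symbols on 24625 rows, and Cd37 was not analysed here. Expression was profiled in neutrophils from the lungs of wild type C57BL/6J mice labelled 6 to 12 weeks old. The methods give a narrower age range within it, and say that the colonies were bred from adult females that had been bought and that mice were matched for sex. The mice had received into the left lung, by the trachea, either Streptococcus pneumoniae (SP), a common bacterial cause of pneumonia, or the same volume of phosphate-buffered saline (PBS). The volume was 2.3 µl for each g of body weight. After 24 h, cells carrying Ly6G, a surface protein of mouse neutrophils, were held on magnetic beads from digests of the lungs. Each group had 4 samples and each sample 1 array, and the study describes a sample as coming from a mouse, which the labels do not state. The methods give the purity of the preparations for mice with pneumonia and not for mice given PBS.

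Tetraspanins span the membrane with their ends inside the cell and gather integrins, proteases, immunoglobulin-like proteins and signalling enzymes into patches called tetraspanin-enriched microdomains. Some of them also shape late endosomes, exosomes and secretory granules, and CD63 is a standard marker of the azurophilic granules of human neutrophils. The L6 or TM4SF family, to which Tm4sf19 and Tm4sf1 belong, has the same number of membrane passes but lacks the conserved cysteines that define true tetraspanins. TM4SF1 is known from endothelial and tumour cells, and TM4SF19 from osteoclasts and macrophages.

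The start regions of 4 of these genes are printed because the genes stand at the ends of the range of differences below, 2 higher and 2 lower in SP. The sequences and positions were taken from RefSeq on the build GRCm38.p6, 5′ to 3′ in the direction of transcription, and cover 250 bases before and 50 bases from the start of the transcript. All 10 genes had such an entry. Tm4sf19 lies on the plus strand with its region at chr16:32400256-32400555, Tm4sf1 on the minus strand at chr3:57301939-57302238, Cd63 on the plus strand at chr10:128909095-128909394 and Tspan7 on the plus strand at chrX:10484866-10485165. Capitals mark matches on either strand to 5 motifs searched: TGANTCA for AP-1, the NF-kB motif, GAGGAA for the core of the PU.1 site, the GC box GGGCGG and the TATA box TATAAA.
Tm4sf19: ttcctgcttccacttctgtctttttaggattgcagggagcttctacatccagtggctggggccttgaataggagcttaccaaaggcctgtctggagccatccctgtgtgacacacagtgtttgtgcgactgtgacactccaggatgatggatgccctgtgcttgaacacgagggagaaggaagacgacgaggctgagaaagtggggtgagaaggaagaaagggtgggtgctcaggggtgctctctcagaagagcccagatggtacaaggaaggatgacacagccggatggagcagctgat
Tm4sf1: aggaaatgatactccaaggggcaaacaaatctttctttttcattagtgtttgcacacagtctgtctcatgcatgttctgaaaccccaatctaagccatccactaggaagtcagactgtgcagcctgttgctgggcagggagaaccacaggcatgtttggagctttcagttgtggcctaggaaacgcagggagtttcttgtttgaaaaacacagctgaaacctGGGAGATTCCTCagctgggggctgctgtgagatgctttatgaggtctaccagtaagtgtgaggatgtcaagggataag
Cd63: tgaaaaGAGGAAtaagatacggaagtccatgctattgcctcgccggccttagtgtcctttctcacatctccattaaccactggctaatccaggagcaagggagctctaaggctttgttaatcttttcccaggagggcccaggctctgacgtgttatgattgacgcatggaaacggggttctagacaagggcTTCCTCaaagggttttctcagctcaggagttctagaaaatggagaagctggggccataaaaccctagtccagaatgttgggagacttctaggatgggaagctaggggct
Tspan7: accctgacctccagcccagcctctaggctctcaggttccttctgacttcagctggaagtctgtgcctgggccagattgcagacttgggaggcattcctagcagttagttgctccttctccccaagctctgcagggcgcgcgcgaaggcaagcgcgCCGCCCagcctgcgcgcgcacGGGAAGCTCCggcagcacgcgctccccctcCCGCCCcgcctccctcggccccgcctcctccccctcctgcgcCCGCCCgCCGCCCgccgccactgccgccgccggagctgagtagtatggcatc

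The Tm4sf19 region held no match to any of the 5 motifs, which says only that these letters are not in this window. In Tm4sf1 the capitals are an NF-kB match whose first base lies 28 bases before the start and a PU.1 core match that overlaps it. Cd63 has 2 PU.1 core matches and Tspan7 has 1 NF-kB match and 4 GC boxes. Among 32851 mouse start regions of the same length, 7.81% held the AP-1 motif, 8.46% the NF-kB motif, 28.3% the PU.1 core, 35.7% the GC box and 13.6% the TATA box. The matches are descriptions of sequence and were not tied to the expression values.

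The expression of Tm4sf19 was higher in SP than in PBS by the largest difference among the 19836 symbols as deposited, although that of Mreg, at 6.25, was within its standard error, so their order is not settled. All values that follow are log2 expression levels, in which 1 unit is a 2-fold difference. Tm4sf19 (row NM_001160402) had levels of 4.98, 4.87, 4.89 and 4.89 in PBS replicates 1 to 4 and of 11.98, 12.07, 9.27 and 11.43 in SP replicates 1 to 4. The PBS arrays were alike, and the SP arrays all lay above them, with SP replicate 3 well below the other 3. The means were 4.91 ± 0.05 (SD, n = 4) and 11.19 ± 1.31 (SD, n = 4), a difference of 6.28 with a standard error of 0.56 and a 95% interval from 5.0 to 7.56, or 77.7-fold. The gap between the highest PBS and the lowest SP value was 4.29. Without SP replicate 3 the difference was 6.92. Y-linked genes, which serve as a measure of background here, had values from 4.33 to 4.90, and 3 of the 4 PBS values of Tm4sf19 were at or below the highest of them. The PBS level is thus close to background and the fold difference is not an exact figure.

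**Figure D1:**
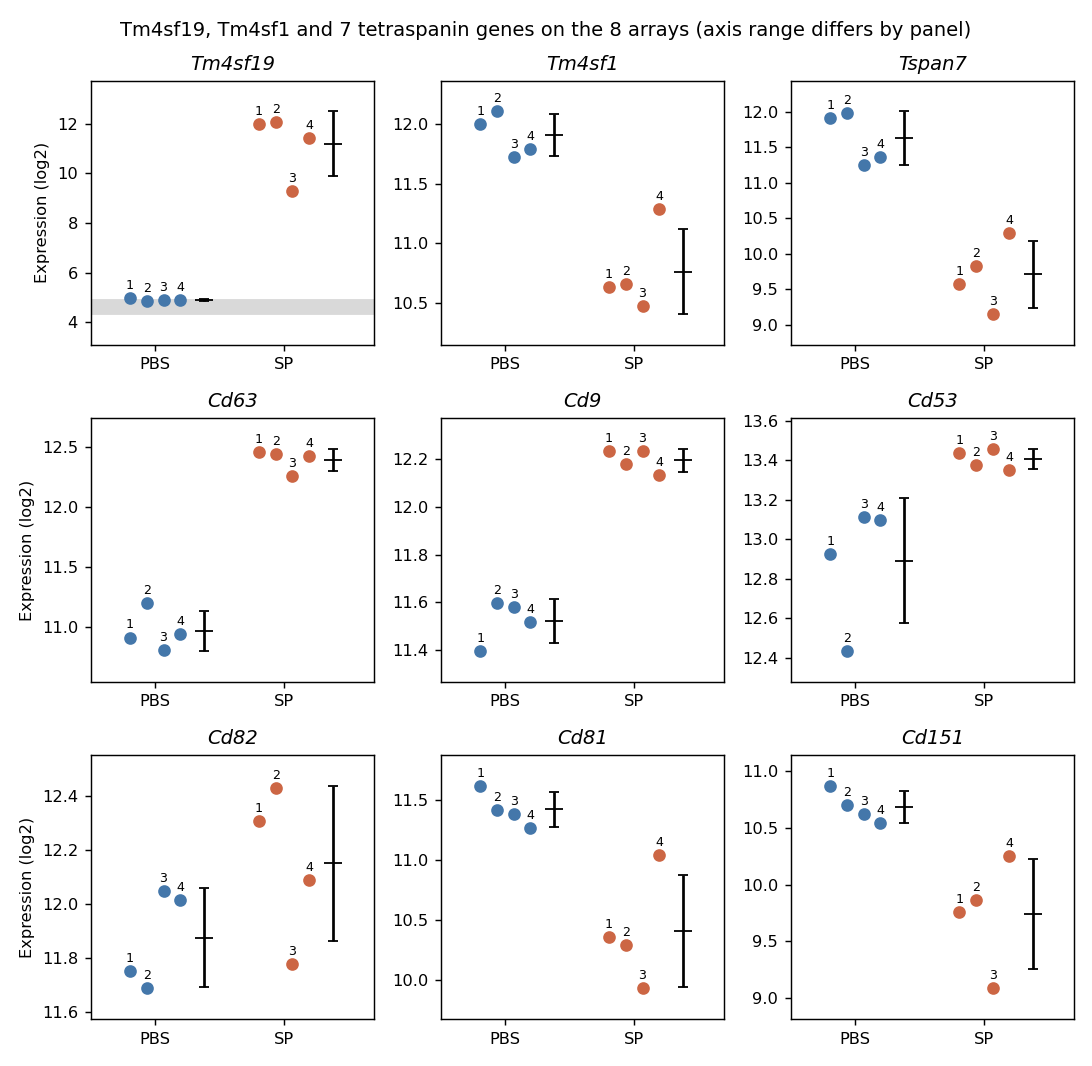
Log2 expression of Tm4sf19, Tm4sf1 and 7 tetraspanin genes (y axis, with its own range in each panel) in 4 PBS (blue) and 4 SP (red) arrays, numbered by replicate, with the mean and SD as bars. The grey band in the Tm4sf19 panel spans the Y-linked values from 4.33 to 4.90, and the PBS and SP points overlap in the Cd82 panel only.

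Tm4sf1, the other L6 gene chosen, lay on the opposite side. Its levels (row NM_008536) were 12.00, 12.11, 11.72 and 11.79 in PBS and 10.63, 10.66, 10.47 and 11.29 in SP. All 4 SP arrays were below the lowest PBS array, and SP replicate 4 was the nearest to them. The means were 11.91 ± 0.18 (SD, n = 4) and 10.76 ± 0.36 (SD, n = 4), a difference of -1.15 with a standard error of 0.18 and a 95% interval from -1.56 to -0.73, or 2.21-fold lower in SP.

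Cd63 encodes the tetraspanin of granules and late endosomes and had the largest difference toward SP among the tetraspanins chosen. Its levels (row NM_001042580) were 10.91, 11.20, 10.81 and 10.94 in PBS and 12.46, 12.44, 12.26 and 12.43 in SP. The groups were 1.06 apart at their nearest points and each was narrow. The difference between the means, 10.96 ± 0.17 and 12.40 ± 0.09 (SD, n = 4 each), was 1.43 with a standard error of 0.10 and a 95% interval from 1.20 to 1.66, or 2.70-fold.

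Cd9 encodes a tetraspanin of leukocytes, platelets and epithelia that binds immunoglobulin-like partners and integrins. Its levels (row NM_007657) were 11.39, 11.60, 11.58 and 11.52 in PBS and 12.24, 12.18, 12.23 and 12.13 in SP. The groups did not overlap. The difference was 0.67 with a standard error of 0.07 and a 95% interval from 0.51 to 0.84, or 1.60-fold.

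Cd53 encodes a tetraspanin known from leukocytes. Its levels (row NM_007651) were 12.93, 12.43, 13.11 and 13.10 in PBS and 13.44, 13.38, 13.46 and 13.35 in SP. PBS replicate 2 was low, and the 4 SP arrays lay close together above all PBS arrays. The difference was 0.51 with a standard error of 0.15 and a 95% interval from 0.17 to 0.86, or 1.43-fold. It was 0.36 without PBS replicate 2.

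Cd82, a tetraspanin of leukocytes and other cells known as a suppressor of metastasis, was the gene of this set whose groups overlapped. Its levels (row NM_001136055) were 11.75, 11.69, 12.05 and 12.01 in PBS and 12.31, 12.43, 11.78 and 12.09 in SP. SP replicate 3 lay among the PBS values. The difference of 0.27 had a standard error of 0.16 and a 95% interval from -0.08 to 0.63, which leaves room for no difference and for one of up to 0.63. It was 0.56 with arrays centred and 0.04 with quantile normalization.

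Cd81, Cd151 and Tspan7 had lower levels in SP. Cd81 encodes a tetraspanin that is made by many cell types and binds immunoglobulin-like partners. Its levels (row NM_133655) were 11.62, 11.42, 11.39 and 11.27 in PBS and 10.36, 10.30, 9.93 and 11.05 in SP. SP replicate 4 was 0.22 below the lowest PBS array and SP replicate 3 was the farthest away. The difference was -1.01 with a standard error of 0.22 and a 95% interval from -1.51 to -0.52, or 2.02-fold lower. It lay between -1.23 (without SP replicate 4) and -0.85 (without SP replicate 3) with arrays left out in turn.

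Cd151 encodes a tetraspanin that binds laminin-binding integrins in epithelia, endothelium and platelets. Its levels (row NM_001111049) were 10.87, 10.70, 10.62 and 10.54 in PBS and 9.75, 9.86, 9.09 and 10.25 in SP. The order of the SP arrays was that of Cd81 apart from a change of place between replicates 1 and 2. The difference was -0.94 with a standard error of 0.22 and a 95% interval from -1.45 to -0.43, or 1.92-fold lower.

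Tspan7, known from neurons and several other tissues, was the farthest below PBS of the 9 genes. Its levels (row NM_019634) were 11.92, 11.99, 11.25 and 11.36 in PBS and 9.57, 9.83, 9.15 and 10.29 in SP. PBS replicates 1 and 2 were above replicates 3 and 4, and no SP array reached the PBS range. The difference was -1.92 with a standard error of 0.26 and a 95% interval from -2.53 to -1.31, or 3.78-fold lower.

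In the fit across all 24625 rows (limma, adjusted p at most 0.05), 8 of the 9 genes were past the threshold, beside 44.1% of all rows. Of these 8, 4 were higher in SP, beside 21.5% of all rows, and 4 were lower, beside 22.6%. With a difference of at least 2-fold added, 2 were higher (Tm4sf19 and Cd63) and 3 lower (Tm4sf1, Cd81 and Tspan7), beside 6.37% and 11.3% of all rows. With arrays centred on their medians, Tm4sf1 (-0.86) and Cd81 (-0.73) were under 2-fold. The 4 SP and 4 PBS values did not overlap for 8 of the 9 genes, beside 49.0% of all rows. Nothing is read from these counts, since the genes were chosen with the same contrast known. The median difference was 0.27 over the 9 genes and 0.10 over all rows. Array medians were 0.28 lower in SP than in PBS on average, and with each array centred on its median the calls over all rows became 14219 higher and 4036 lower, against 5306 and 5554 as deposited. No sign of any of the 9 differences turned with arrays centred or with quantile normalization.

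The rest of the tetraspanin family was mostly lower in SP. The list held 23 further family genes, all with a matched row, and 16 of them differed at an adjusted p of 0.05 (limma, Benjamini-Hochberg over all rows), 15 lower and 1 higher, beside 22.6% and 21.5% of all rows. The list had a median difference of -0.99 against 0.10 over all rows. At 2-fold, 11 fell and none rose. With arrays centred the calls were 13 lower and 6 higher. Without SP replicate 3 they were 15 lower and 2 higher.

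Upk1b, a uroplakin of the bladder lining that mesothelium also makes, had the largest fall. Its levels were 10.84, 10.31, 10.62 and 10.20 in PBS and 7.62, 7.69, 5.10 and 8.22 in SP. Its fall was 10.1-fold (log2 difference -3.33, standard error 0.61, limma adjusted p = 0.00286), and SP replicate 3 was far below the other SP arrays. Without SP replicate 3 the log2 difference was -2.65. Tspan1, made by secretory and ciliated epithelium, fell from levels between 9.39 and 10.21 to levels between 5.77 and 7.40, a 7.08-fold difference (limma adjusted p = 0.000464). Tspan18, known from endothelium, fell from between 9.54 and 10.59 to between 6.77 and 7.90, a 6.50-fold difference (limma adjusted p = 0.000225).

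The other 8 falls of at least 2-fold had log2 differences of -2.03 for Tspan12, a co-receptor of Norrin and Frizzled signalling in vessels, -1.96 for Tspan2, -1.74 for Tspan15, -1.59 for Tspan13, -1.59 for Tspan8, -1.57 for Tspan17, -1.38 for Tspan9 and -1.37 for Tspan11. The PBS and SP values did not overlap for any of the 11 genes. Tspan11 was the least firm of them, with an adjusted p of 0.0284 by limma and 0.0642 by the test of the study's methods, and with calls lost when PBS replicate 1, 2 or 4 or SP replicate 2 was left out. The gene that rose was Rom1, a photoreceptor tetraspanin, from levels between 5.08 and 5.22 to levels between 5.34 and 5.75 (limma adjusted p = 0.0114). Rom1 and the genes of the TspanC8, L6, partner and osteoclast lists that are named below with a difference under 2-fold were named after their values were seen.

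**Figure D2:**
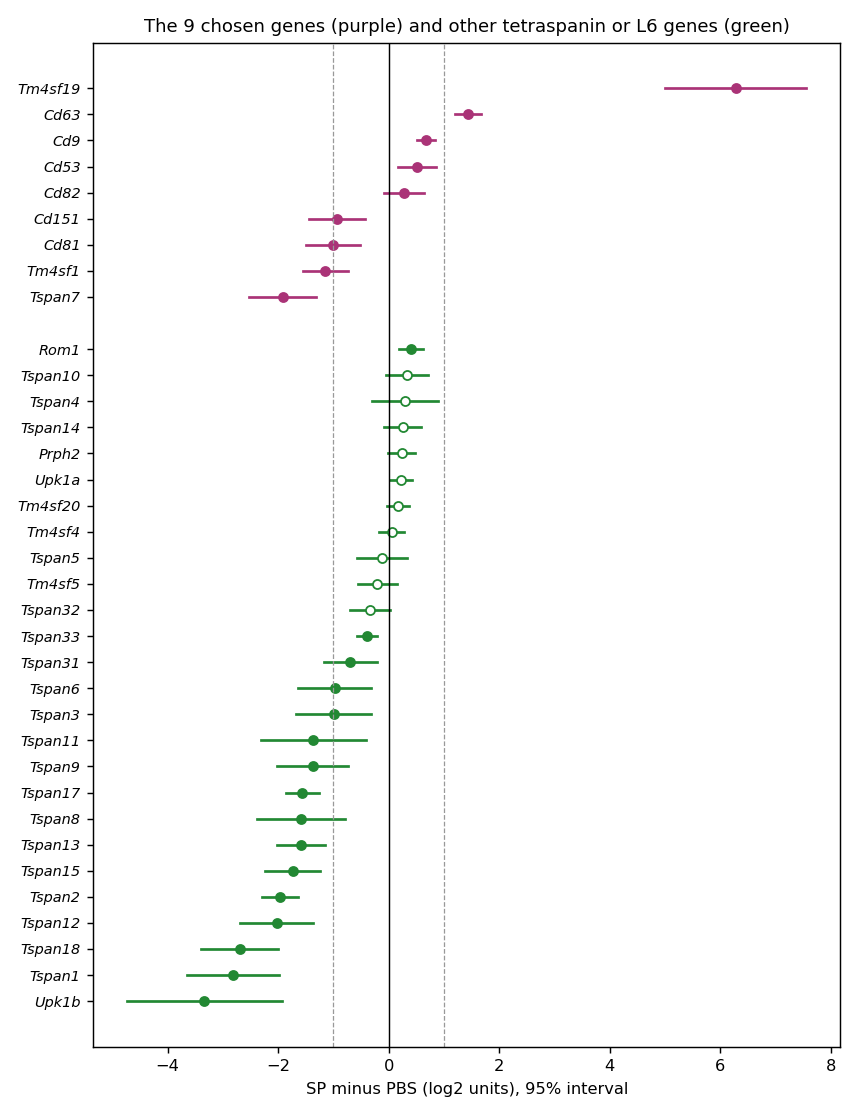
SP minus PBS difference in log2 units (x axis) with its 95% interval for the 9 genes with a matched row (purple) and for 23 further tetraspanin and 3 further L6 genes (green), ordered by difference within each colour. Filled green points passed an adjusted p of 0.05 by limma and open ones did not, the purple points carry no test, and dashed lines mark a 2-fold difference. Tm4sf19 stands alone at 6.28 and Upk1b is lowest at -3.33.

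TspanC8 tetraspanins escort the protease ADAM10 out of the endoplasmic reticulum and direct it to its substrates. Of the 6 TspanC8 genes, Tspan15, Tspan17 and Tspan33 fell and the other 3 did not pass the test, with log2 differences of -0.12 for Tspan5, 0.33 for Tspan10 and 0.25 for Tspan14, and a median of -0.26 over the 6. The fall of Tspan33 was -0.40, and the call was lost with arrays centred, at an adjusted p of 0.301. With arrays centred Tspan10 and Tspan14 were called higher, by 0.61 and 0.53, at limma adjusted p-values of 0.0166 and 0.0127. The SP mean of Tspan33 was at or below the highest Y-linked value. Tspan14 passed the test without SP replicate 3, at a difference of 0.39. Adam10 itself had a difference of 0.01 with a standard error of 0.14 and a 95% interval from -0.31 to 0.34.

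None of the 3 further L6 genes passed the test by limma or by the test of the study's methods, and none had an unadjusted p under 0.05. The differences were 0.05 for Tm4sf4, -0.21 for Tm4sf5 and 0.16 for Tm4sf20. Tm4sf4 and Tm4sf20 had means at or below the highest Y-linked value in both groups, so they were not measured above background. With arrays centred both were called higher.

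Of 15 known partners of tetraspanins, 14 had a matched row and 10 differed, beside 44.1% of all rows. Of these, 3 were higher, beside 21.5% of all rows, which is about the same share, and 7 lower, beside 22.6%, and the median difference was -0.71. Adam17, the sheddase of TNF and of L-selectin, rose 3.06-fold, from levels of 9.94, 9.71, 10.10 and 9.84 to levels of 11.62, 11.68, 11.35 and 11.39 (limma adjusted p = 2.52e-05). Itgb1, the integrin beta 1 chain, and Sdcbp, which encodes the exosome adaptor syntenin, rose by 0.69 and 0.54. The Itgb1 call was lost under quantile normalization, at an adjusted p of 0.122.

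Partners that fell at least 2-fold included Cd36 (-1.84), a scavenger receptor, Ptgfrn (-1.54), a CD9 and CD81 partner, Itga3 (-1.43), the CD151 partner in integrin alpha 3 beta 1, and Epcam (-1.28), an epithelial adhesion protein. The PBS and SP values of these 4 genes did not overlap. Itga4 and Cr2 fell by less, and the SP mean of Cr2 was at or below the highest Y-linked value. The 4 others, Igsf8, Adam10, Itga6 and Hbegf, did not pass the test, and Clec7a was not analysed here.

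Genes of osteoclasts and of cell fusion were listed because Tm4sf19 is known there. Of 10 listed genes, 4 rose and none fell, beside 44.1% of all rows called, 21.5% higher and 22.6% lower. The total share called is near that of all rows, though all 4 calls were higher. With 10 genes nothing is read from these counts. The median difference was 0.25, and 6 genes had an unadjusted p under 0.05. Acp5, the tartrate-resistant acid phosphatase, had levels of 8.94, 8.50, 8.53 and 8.65 in PBS and of 10.91, 10.79, 10.56 and 11.09 in SP, a 4.54-fold rise (limma adjusted p = 1.57e-05). Itgb3, the integrin beta 3 chain, rose 4.05-fold, from levels between 7.14 and 7.59 to levels between 8.98 and 9.85 (limma adjusted p = 0.000213).

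Ocstamp and Dcstamp, the fusion receptors of multinucleating cells, rose to SP means of 5.38 and 5.06 from PBS means at or below the highest Y-linked value, so the size of these rises was not measured. The Dcstamp call was lost in 7 alternatives, at adjusted p-values up to 0.0882. The other 6 listed genes were not called. Among them Ctsk, the collagen-degrading protease of osteoclasts, had a difference of -0.62, Atp6v0d2 of 0.03 and Nfatc1, the regulator of osteoclast differentiation, of -0.25.

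The 5 genes whose levels, each taken relative to its own PBS mean, were nearest to those of Tm4sf19 over the 8 arrays were Mreg, Ifit2, Saa3, Cxcl9 and F10. This measure favours genes with a rise of like size, here from 5.35 for F10 to 6.25 for Mreg. It thus restates the contrast between the groups, and shared control was not tested. The root mean square difference per array was 0.70 for Mreg, 0.94 for Ifit2, 0.95 for Saa3, 0.99 for Cxcl9 and 1.03 for F10. Mreg encodes melanoregulin, which acts in the traffic of lysosome-related organelles, Ifit2 is an interferon-induced gene, Saa3 an acute phase protein, Cxcl9 a chemokine for T cells and F10 coagulation factor X. Relative to its PBS mean, Tm4sf19 stood at 7.07, 7.16, 4.36 and 6.52 in SP replicates 1 to 4. In SP replicate 3 Tm4sf19 was below all 5 genes, which stood at 6.00 for Mreg, 5.60 for Ifit2, 6.28 for Saa3, 5.13 for Cxcl9 and 5.26 for F10. In the other SP arrays it was above all 5.

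**Figure D3:**
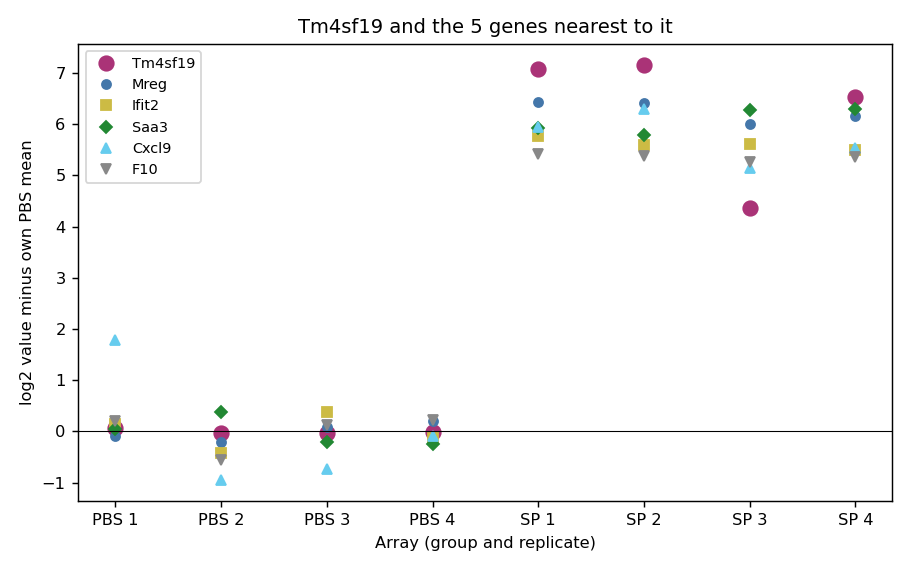
Log2 level minus the mean of the 4 PBS arrays (y axis) for Tm4sf19 and the 5 genes nearest to it, on each array (x axis). The genes lie within 1 unit of 0 in PBS apart from Cxcl9 in replicate 1, and in SP replicate 3 Tm4sf19 drops to 4.36, below the other 5.

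The labelled cell type was present on every array, and so were markers of other lung cells. None of the 11 neutrophil markers, led by Lcn2 and Retnlg, had a group mean at the level of the Y-linked genes. Of these 11, 3 fell and none rose, beside 22.6% of all rows lower and 21.5% higher. Those shares stand beside the counts of all marker lists below, and nothing is read from counts near them. The log2 of the summed linear levels of the neutrophil markers was 16.18 to 16.37 in PBS and 15.72 to 16.44 in SP. Of 11 endothelial markers, with Calcrl and Cdh5 the highest in mean, 10 fell, and their summed level was 14.02 to 14.97 in PBS and 12.66 to 13.57 in SP. Of the genes lower in SP, Tm4sf1, Cd81, Cd151, Tspan18 and Cd36 are known from endothelial cells. Only genes lower in SP were looked at in this way. Genes higher in SP, among them Cd63, Cd9 and Itgb1, were not sorted by cell type. The list therefore cannot show which way genes known from endothelium went, and the part of endothelial cells in these levels was not tested. Marker lists of epithelium were lower in SP as well. Here and below, brackets hold the 2 genes of a list with the highest mean, whether or not they changed. Of the alveolar type 1 markers (Emp2, Pdpn) 5 of 6 fell, all but Pdpn. Their sums were 12.48 to 13.43 in PBS and 10.84 to 12.04 in SP. The alveolar type 2 markers (Sftpc, Sftpa1) fell in 7 of 8 cases, with sums of 15.16 to 15.60 and 13.60 to 14.82.

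All 6 ciliated markers (Tppp3, Cdhr3) fell, with sums of 12.61 to 13.33 and 9.91 to 10.73, and so did all 5 club cell markers (Scgb1a1, Cbr2), with sums of 15.24 to 15.66 and 13.73 to 14.22. Of the fibroblast markers (Bgn, Dcn) 2 of 7 fell, beside 22.6% of all rows, with sums of 12.48 to 13.02 and 10.74 to 12.78. All 4 mesothelial markers (Upk3b, Msln) fell, with sums of 11.89 to 12.38 and 7.89 to 9.40, the widest gap of the lists. None of the measured markers of these 7 lists had a group mean at or below the highest Y-linked value, except the fibroblast gene Lum in PBS. The sums of the fibroblast list overlapped between the groups. Those of the other lists were lower in SP, as were Tm4sf1, Tspan7, Cd81, Cd151 and the 15 further tetraspanins that fell. The part of these cells in those differences was not tested. In such preparations fewer cells of a type and less RNA in each cell cannot be told apart.

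Among blood and immune cells, 5 of 6 alveolar macrophage markers (Car4, Ear1) fell, with sums of 12.08 to 12.95 in PBS and 10.60 to 11.50 in SP. Of 8 monocyte and macrophage markers (Csf1r, Adgre1) 3 rose and none fell, beside 21.5% of all rows higher and 22.6% lower. None of the 8 was at the Y-linked level. Their sums were 12.34, 11.32, 12.22 and 12.17 in PBS and 12.93, 12.86, 11.96 and 13.06 in SP, so the groups overlapped and SP replicate 3 was the lowest SP array, as it was for Tm4sf19. Such a sum follows the brightest genes of its list, here Csf1r and Adgre1, and sets no bound on the level of another gene. The part of these cells in the Tm4sf19, Acp5 and Itgb3 values was not tested.

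Of the B cell markers (Cd79b, Cd79a) 5 of 6 fell, with sums of 10.59 to 11.57 and 8.82 to 10.22. Cd81, which many cell types make, was lower too, and so was Cr2, whose SP mean was at background. The part of B cells in the Cd81 and Cr2 values was not tested. Of 6 dendritic cell markers (Ccr7, Cd209a) 2 fell, beside 22.6% of all rows, with sums of 9.46 to 10.22 and 8.80 to 9.34. Of 6 T cell markers (Lat, Cd3e) 2 others, Cd3d and Cd5, rose, beside 21.5% of all rows higher. The T cell sums were 8.26 to 8.84 and 8.47 to 9.91. Of 6 platelet markers (Pf4, Ppbp) 2 fell, beside 22.6% of all rows, with sums of 9.76 to 10.69 and 8.85 to 9.92. The genes that fell were Ppbp and Gp9, and the SP mean of Gp9 was at or below the highest Y-linked value. Platelets carry CD9, CD63 and CD151 protein, while Cd9 and Cd63 were higher in SP and Cd151 lower. The part of platelets in those levels was not tested. Of 4 eosinophil markers (Ccr3, Il5ra) 1 was called higher, beside 21.5% of all rows, with sums of 6.84 to 8.30 and 7.23 to 7.58. That gene was Prg2, which like Epx had means at or below the highest Y-linked value in both groups.

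**Figure D4:**
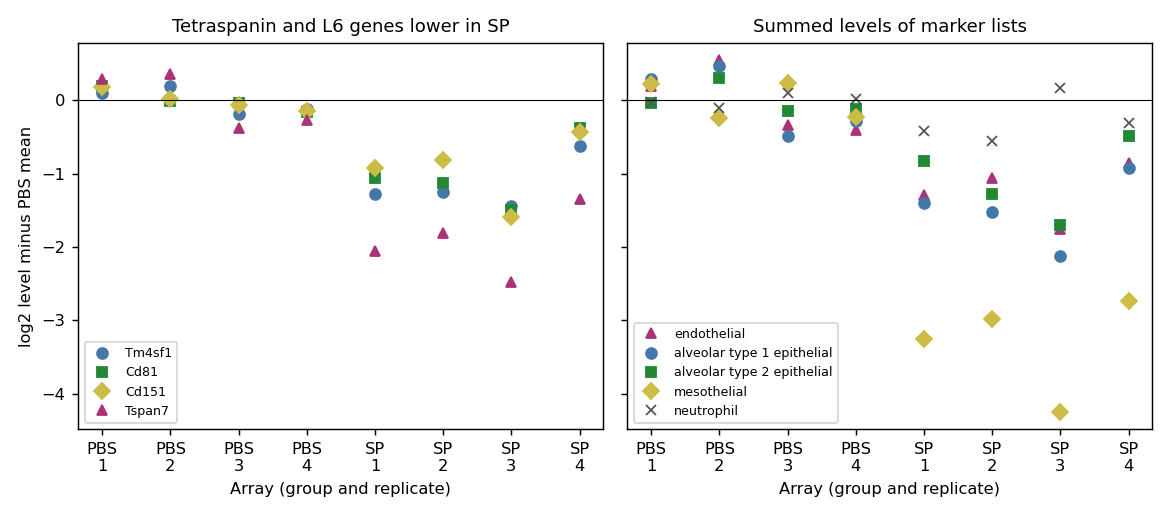
Left, log2 level minus the PBS mean for the 4 chosen genes that were lower in SP, on each array (x axis). Right, the same for the log2 summed level of the endothelial, alveolar type 1 and 2, mesothelial and neutrophil marker lists, on the same y axis. SP replicate 3 is lowest and SP replicate 4 highest among the SP arrays for the 4 genes, and the same holds for the 4 lists other than the neutrophil one, in which SP replicate 3 is the highest.

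The order of the SP arrays recurred across the set. SP replicate 3 was the lowest SP array for 7 of the 9 genes and for 19 of the 23 further tetraspanins, beside 33.9% of all rows, and SP replicate 4 was the highest for 4 of the 9 and 15 of the 23, beside 23.7% of all rows. The genes in which SP replicate 3 was not the lowest were Cd9 and Cd53. The endothelial sums of 13.14, 13.36, 12.66 and 13.57 in SP replicates 1 to 4 had the same lowest and highest array. The neutrophil sums of 15.85, 15.72, 16.44 and 15.97 had SP replicate 3 at the top. On the second principal component of all rows, which held 9.16% of the variance, SP replicate 3 lay at -51.4 and the other SP arrays between 16.2 and 26.8. Without SP replicate 3 each of the 9 differences kept its sign. What sets the order of the SP arrays was not tested.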

How the data were processed

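Neutrophil RNA from 4 PBS and 4 SP samples was measured on Affymetrix Mouse Gene 1.1 ST arrays. The authors made the deposited log2 values by robust multi-array averaging (background correction, correction for GC content and sequence, quantile normalization and median polish), with custom groupings of probes into genes. Values are relative within an array, so a change in total RNA cannot be read from them, and bright genes may be compressed. The submitters' processing notes name Affymetrix Expression Console, RMA and Partek, and no genome build is attached to the values. The number of arrays limits precision.

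Row accessions were matched without versions to RefSeq genes of GRCm38.p6, which named 19915 of 24625 rows (80.9%). For a symbol on several rows, the row with the highest mean was used. No array was a copy of another and no value was missing. All rows were fitted with limma 3.58.1 in R 4.3.3 (lmFit and eBayes, SP minus PBS, no covariates, two-sided, Benjamini-Hochberg over all rows), after the code was tested on simulated data. Thresholds were an adjusted p of 0.05 and, where stated, 2-fold. Summaries and figures used Python 3.11.15. Sums of marker lists are the log2 of summed linear values.

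The genes described and all lists were chosen with earlier results of these data known. Named were the chosen genes, listed genes that changed at least 2-fold without overlap (or the 2 with the largest difference), the 5 genes nearest to Tm4sf19, Y-linked genes (Ddx3y, Kdm5d and Uty) as background, and the 2 highest genes of each marker list. Alternatives were the one-way ANOVA of the methods, a robust prior with trend, the replicate number as a block, centred arrays, another quantile normalization, dim rows left out and each array left out in turn. Cd37, Clec7a and the microRNA arrays were not analysed here. The counts of the partner list include a gene whose own values are not reported here.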

Additional observations from a re-analysis of the deposited data

Results flagged for a closer look

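A single array stood apart from the other 3 of its group, by Dixon's ratio at its 95% critical value for 4 samples, in 4 of 72 groups tested over 36 genes, and chance flags about 1 in 20 groups. Cd63 was lower in SP replicate 3, at 12.26, than in the other SP arrays, at 12.43 to 12.46. Tspan2 was higher in PBS replicate 1, at 10.16, than in the other PBS arrays, at 9.89 to 9.90. Tspan17 was higher in SP replicate 4, at 6.80, than in the others, at 6.28 to 6.36. F10, one of the genes nearest to Tm4sf19, was lower in PBS replicate 2, at 6.40, than in the others, at 7.10 to 7.18.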

How the results depend on the processing

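With arrays centred, differences became 0.96 for Cd9, 1.71 for Cd63, 0.56 for Cd82 and 0.80 for Cd53, rows called 18255 in all and 14219 higher, further tetraspanins called higher 6, and L6 genes called 2, both higher. Quantile normalization gave 0.44 for Cd9, 1.22 for Cd63 and 0.04 for Cd82. Leaving out dim rows gave 2971 rows called higher, 0 tetraspanins called higher and 2 osteoclast genes called, both higher. The one-way ANOVA called 2 tetraspanins higher. With arrays left out in turn, rows called higher numbered 3528 (without PBS replicate 1) to 5301 and tetraspanins called higher 1 to 2. The 9 chosen genes kept their sign with arrays centred, with quantile normalization and with each array left out, where Tm4sf19 was between 5.99 and 6.92.

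Signs turned in 11 of 440 values for 32 single genes, in genes that were not called. Adam10 had -0.12 with quantile normalization and -0.064 to 0.14 with arrays left out in turn, below 0 without PBS replicate 2 (-0.064) and without SP replicates 1, 2 and 4 (-0.0071, -0.044 and -0.034). Tm4sf4 had -0.11 with quantile normalization and -0.031 (without SP replicate 3) to 0.095 with arrays left out. Tm4sf5 had 0.075 with arrays centred. Tspan5 had 0.16 with arrays centred, 0.087 with quantile normalization, and -0.28 to 0.0075 (without PBS replicate 3) with arrays left out. Of the other values, 410 kept direction and call, 14 lost the call and 5 gained it. The cause of these shifts was not tested.

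The labels number replicates 1 to 4 in both groups and do not say that a number is shared. Deviations of same-numbered arrays correlated at 0.016, 0.030, 0.35 and -0.27, and of the 4 SP arrays only replicate 3 correlated best with its own number. With the replicate number as a block, 9842 rows, 16 further tetraspanins, 10 partners, 4 osteoclast genes and 0 L6 genes were called.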
